A study of Mus musculus with 8 samples.

Results

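The mRNAs of 8 surface proteins by which mouse haematopoietic stem cells (HSCs) are commonly sorted, Kit, Ly6a, Slamf1, Cd48, Cd34, Flt3, Procr and Cd27, were followed through young and old HSCs. The genes were chosen by name, and all 8 were present among the 19909 genes of the deposited tables. All mice had the genotype Gfplc3/Gfplc3, in which GFP is joined to LC3; LC3 coats autophagosomes and is lost, with its GFP, when autophagy is active. The young group was 2 libraries of unfractionated HSCs from mice of 8 to 12 weeks. The old groups were 3 libraries each from mice over 24 months, sorted into the 33% of HSCs with the lowest GFP (AThi, for high autophagy) and the 33% with most GFP (ATlo, for low autophagy). All mice were at steady state, and about 10000 bone marrow HSCs went into each RNA sample. The middle GFP fraction of the old HSCs was not analysed here. Neither the surface gate that defined an HSC nor the promoter of the fusion is stated in the sources used here. Only the old cells were split by GFP, so in both comparisons with young the effects of age and of the GFP gate cannot be told apart.

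These proteins mark steps of the stem cell hierarchy. Kit, the receptor for stem cell factor, and Ly6a, also called Sca-1, are carried together by stem cells and early progenitors of the bone marrow. Within that compartment, Slamf1 (CD150) and Procr (EPCR) are high on long-term HSCs, whereas Cd48, Flt3 and Cd34 appear as cells become multipotent progenitors. Cd27, a receptor of the TNF receptor family, is present on most cells of the compartment.

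Depth was 44021141 and 45590508 reads in the young libraries, 33960216 to 45830216 in AThi and 54512285 to 61341946 in ATlo. Libraries are named by the tag in the file headers, D11 and D12 for young and O10, O11 and O12 for old. The labels pair the old fractions, and the AThi and ATlo libraries with the same tag were taken as those of 1 old mouse. Of 14 HSC marker genes, all 14 were in the tables and only Cd48 was at 0 in any library. RNA was collected on 2 sort days, and which library came from which day is not stated, so whether the header tag marks a day or another batch is unknown. The 3 libraries tagged 12, which include young and old ones, stood apart. The summed normalized count of 5 B cell genes was 10785 in young D12, 23977 in AThi O12 and 10148 in ATlo O12, against 636 to 989 in the other libraries. Young D11 had Xist at 97743 normalized counts and 4 Y-linked genes summing to 10.4, while D12 had the Y-linked genes at 6776 and Xist at 3869. The 2 young libraries thus differed in sex-linked as well as in B cell transcripts, and AThi O12 and ATlo O12 also had Xist (5810 and 2747) beside Y-linked transcripts. Every old library held the Y-linked transcripts, from 5925 in ATlo O10 to 9347 in AThi O12, so D11 alone nearly lacked them. In both comparisons with young, this difference of D11 is mixed with age and the GFP gate and cannot be told apart from them.

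Compared per exon length, the 8 mRNAs lay at 3 levels. Averaged over the 8 libraries, Kit had 3448 normalized reads per kilobase of exon, Cd27 had 3265, Ly6a had 2709 and Procr had 1584. Each of these was above 94.9% or more of the 19585 genes with a known exon length. Cd34 (504) and Slamf1 (486) lay near the 82.3 and 81.7 percentiles. Flt3 (91.5) and Cd48 (89.7), both progenitor markers, lay near the 42.5 and 42.0 percentiles. The ranks of Kit, Cd27 and Ly6a changed from library to library, and their group means did not differ beyond their spread in AThi, at 3849 ± 848, 3104 ± 580 and 3456 ± 1016 normalized reads per kilobase (SD, n = 3). In all 8 libraries Procr stood below these 3 and above the other 4. Cd34 stood above Slamf1 in both young libraries and below it in all 3 AThi libraries.

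**Figure D1:**
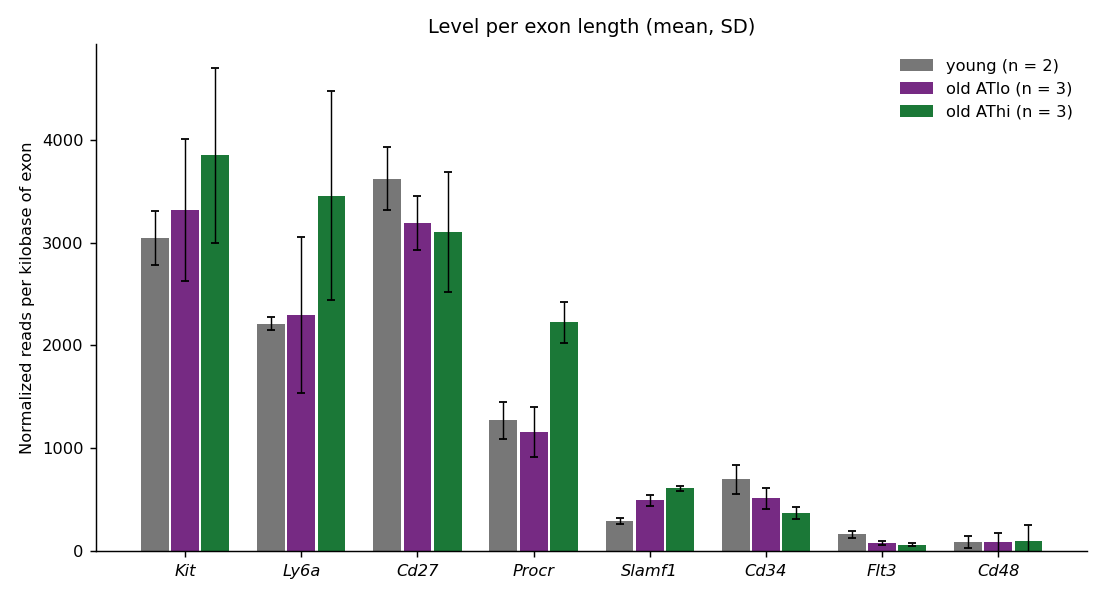
Normalized reads per kilobase of exon for each surface marker; bars are group means and lines the SD (young n = 2, old ATlo n = 3, old AThi n = 3), on a linear axis from 0. Kit, Ly6a, Cd27 and Procr are highest, Cd34 and Slamf1 lie between, and Flt3 and Cd48 lie close to the axis.

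Against young HSCs, AThi HSCs had more mRNA of the long-term markers Slamf1 and Procr and less of 2 progenitor markers, Cd34 and Flt3. No change was detectable in Cd48, also a progenitor marker. Slamf1 was 2.08-fold higher and Procr 1.75-fold higher, and Cd34 was 1.91-fold lower and Flt3 2.70-fold lower in the authors' deposited table. ATlo HSCs shared the rise of Slamf1 (1.69-fold) and the fall of Flt3 (2.17-fold lower) in the authors' deposited table, while Procr and Cd34 were not called there. Between the 2 old fractions, Procr was the only one of the 8 to pass the test, 1.93-fold higher in AThi in the authors' deposited table. Of 14 listed multipotent progenitor genes, which include Cd34, Flt3 and Cd48, 9 were in the tables. Their summed normalized count was 28903 to 35513 in young and 35223 to 40644 in AThi. In AThi against young 1 of them was called higher (3.13% of all genes) and 2, Cd34 and Flt3, lower (1.91%). These bulk values cannot tell fewer cells of a type from less RNA per cell.

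The DESeq2 Wald test of the authors' deposited table, with an adjusted p below 0.05 over all genes tested, called 4 of the 8 in AThi against young, where 5.04% of 19064 genes were called. Of these, 2 were higher (3.13% of genes) and 2 lower (1.91%). In ATlo against young the authors' deposited table called 2 of 8, beside 4.34% of 18678 genes, 1 higher (2.37%) and 1 lower (1.98%). In AThi against ATlo it called 1 of 8, beside 7.9% of 17908 genes, and that 1 was higher (3.47% of genes, with 4.43% lower). The median log2 fold change of the 8 was 0.30, -0.09 and 0.26 in the same order of comparisons, and that of all genes tested was 0.00, 0.01 and 0.02. Libraries of the 2 groups did not overlap for 5 of 8 mRNAs in AThi against young (28.2% of genes), 3 higher (13.9%) and 2 lower (14.2%). They did not overlap for 3 of 8 in ATlo against young (31.4%), 1 higher (16.1%) and 2 lower (15.2%), and AThi and ATlo were apart for 3 of 8 (22.3%), with 2 higher in AThi (10.7%) and 1 lower (11.6%). Both comparisons with young use the same 2 young libraries, so they are not independent of each other.

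**Figure D2:**
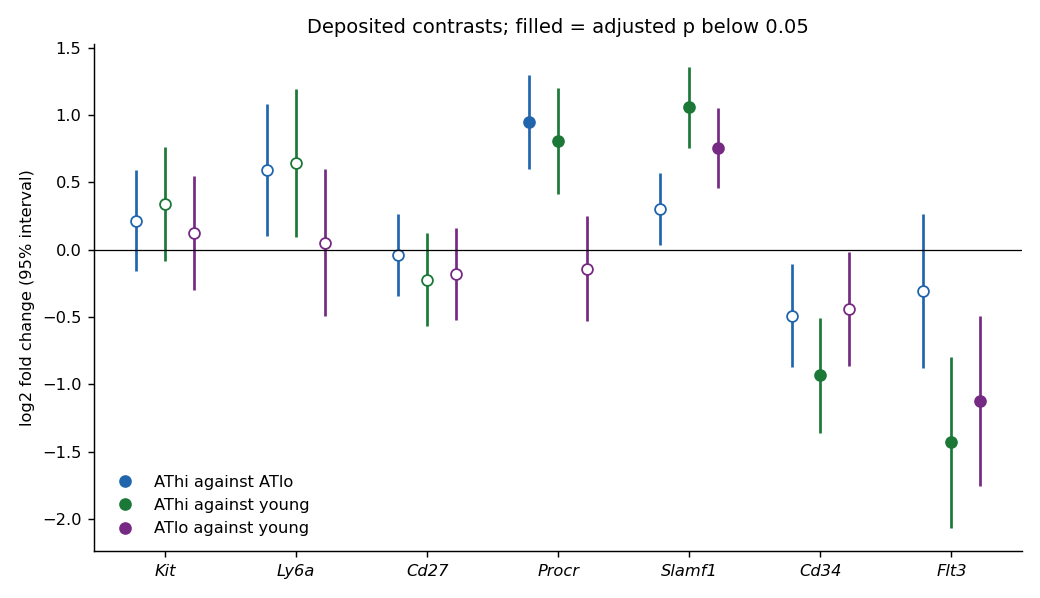
Log2 fold change of 7 surface markers in the 3 deposited contrasts, with 95% intervals from the standard errors; filled points have an adjusted p below 0.05. Cd48 is left out because its intervals span more than 9 log2 units; Slamf1 lies above 0 and Flt3 below 0 in both contrasts with young, and Procr is filled in both contrasts that involve AThi.

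The calls against young depended on the test. On the recovered reads, edgeR's quasi-likelihood fit called Procr in AThi against ATlo (adjusted p 0.033; 1.41% of genes called) and Slamf1 in AThi against young (adjusted p 0.0088; 1.21%). In ATlo against young edgeR called 0 of the 8 (0.653% of genes), with 2 at an unadjusted p below 0.05, Slamf1 (adjusted p 0.061) and Flt3 (adjusted p 0.18), and limma called 1, Slamf1 (adjusted p 0.045).

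**Figure D3:**
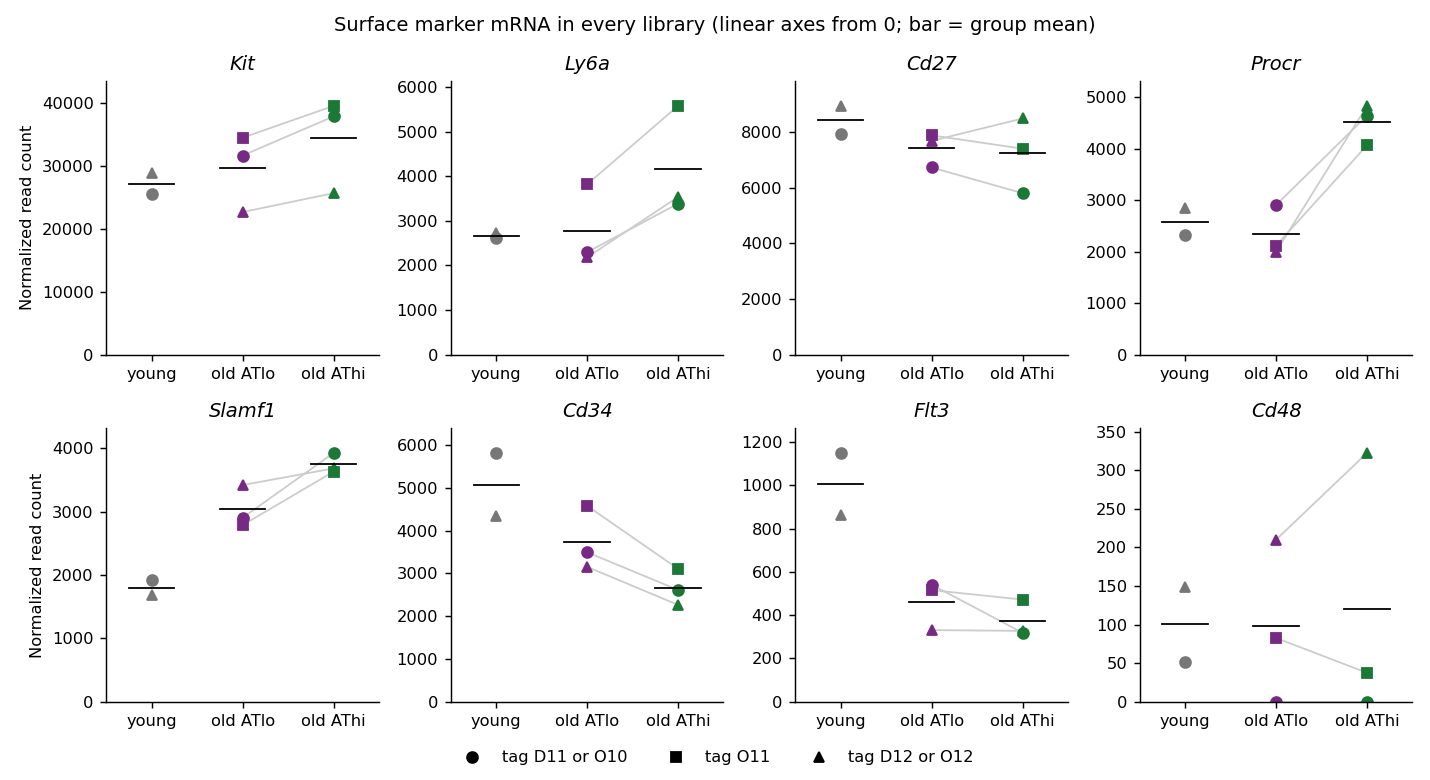
Normalized read count of each surface marker in every library; points are libraries, shapes give the header tag, short bars are group means, and grey lines join the 2 fractions of an old mouse. All 3 AThi libraries lie above all ATlo and young libraries for Procr, and all 6 old libraries lie above both young libraries for Slamf1.

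Kit and Flt3 encode class III receptor tyrosine kinases, for stem cell factor and for FLT3 ligand. Kit (chromosome 5, 75574916 to 75656722, plus strand, GRCm38) was at 25495 and 28785 normalized counts in young D11 and D12, at 37797, 39466 and 25620 in AThi O10, O11 and O12, and at 31595, 34419 and 22621 in the ATlo libraries of the same mice. Both fractions of mouse O12 were low, and the AThi range overlapped that of young and of ATlo. In the authors' deposited table the log2 fold change of Kit was 0.34 (SE 0.21, DESeq2 adjusted p 0.54) in AThi against young, 0.12 (SE 0.21, adjusted p 0.89) in ATlo against young and 0.22 (SE 0.19, adjusted p 0.61) in AThi against ATlo. The 95% interval of the last was -0.16 to 0.59 in the authors' deposited table. Without the 2 libraries tagged O12, Kit was higher in AThi than in young in a DESeq2 refit (log2 fold change 0.51, adjusted p 0.0019).

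Flt3 (chromosome 5, 147330741 to 147400489, minus strand) was lower in both old fractions than in young. It was at 1150 and 862 normalized counts in young D11 and D12, at 319, 472 and 327 in AThi O10, O11 and O12, and at 541, 516 and 331 in the same mice's ATlo libraries. All 6 old libraries were below both young libraries, and the old fractions overlapped. In the authors' deposited table Flt3 fell by 1.43 on the log2 scale in AThi against young (SE 0.32, DESeq2 adjusted p 0.00060). For ATlo against young the authors' deposited table gave a fall by 1.12 (SE 0.32, adjusted p 0.018). Between the fractions the authors' deposited table gave Flt3 a log2 fold change of -0.31 (SE 0.29, adjusted p 0.64). The AThi call was lost by edgeR (adjusted p 0.069) and without young D11 (DESeq2 adjusted p 0.11). That in ATlo against young was lost by edgeR (adjusted p 0.18) and, in DESeq2 refits, without young D11, young D12 or ATlo O12 (adjusted p 0.43, 0.064 and 0.082). The values without young D11 rest on D12, the young library with B cell transcripts and, like every old library, with Y-linked transcripts.

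Slamf1 and Cd48 belong to the SLAM family of immunoglobulin-like receptors and lie close together on chromosome 1. Slamf1 (171767127 to 171801184, plus strand) was at 1925 and 1679 normalized counts in young D11 and D12, at 3926, 3631 and 3683 in AThi O10, O11 and O12, and at 2904, 2788 and 3420 in the corresponding ATlo libraries. It was the steadiest of the 8 within AThi, at 3747 ± 157 normalized counts (SD, n = 3), and every AThi library was above every ATlo library and every ATlo library above both young ones. By the authors' deposited table Slamf1 rose by 1.06 on the log2 scale in AThi against young (SE 0.15, DESeq2 adjusted p 9.3e-10) and by 0.75 in ATlo against young (SE 0.15, adjusted p 8.8e-05). The step between the fractions, 0.30 (SE 0.14, adjusted p 0.17), did not pass the test in the authors' deposited table. The AThi rise was also called by edgeR (adjusted p 0.0088), and in the DESeq2 refits that left out 1 library. The ATlo rise was not called by edgeR (adjusted p 0.061) or without the 3 libraries tagged 12 (DESeq2 adjusted p 0.24), a fit that leaves D11 as the only young library.

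Cd48 (171682009 to 171705258, plus strand) was at 51.9 and 149 normalized counts in young D11 and D12, at 0, 37.4 and 322 in AThi O10, O11 and O12, and at 0, 82.6 and 210 in the ATlo libraries. The old values followed the header tag, taken as the mouse, rather than the fraction. Both libraries of mouse O10 held 0 reads, which allows up to 4.39 normalized counts in AThi O10 and 2.36 in ATlo O10 (3 reads, counting error only). Cd48 was highest in the 3 libraries with B cell transcripts, D12 within the young group and O12 within each old fraction. Of the 10 B cell genes listed, 5 were in the tables; their summed level ranged from 706 to 10785 normalized counts in young, 879 to 23977 in AThi and 636 to 10148 in ATlo. Cd79a, a component of the B cell receptor, was at 0 in young D11, AThi O10 and ATlo O11, and Ighm, the immunoglobulin heavy chain, was at 20937 in AThi O12 and at 63.5 or less in the 5 libraries without the tag 12. T and NK cell genes also had their highest sums in the 3 libraries tagged 12. These were 1199 in young D12, 1227 in AThi O12 and 1195 in ATlo O12, against 435 to 904 in the others. Within each group the same held for erythroid genes (5808, 2690 and 5153) and granulocyte and monocyte genes (12791, 14570 and 13320). It did not hold for megakaryocyte and platelet, mast cell, or stromal and endothelial genes. The part of RNA from such cells in the Cd48 level was not tested. Cd48 still had 104 reads in ATlo O11 and 50 in young D11, where the B cell sum was 733 and 706. The authors' deposited table gave log2 fold changes of 0.26, -0.04 and 0.30 in AThi against young, ATlo against young and AThi against ATlo, with SEs of 2.73, 2.73 and 2.44, so no change in Cd48 was detectable.

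**Figure D4:**
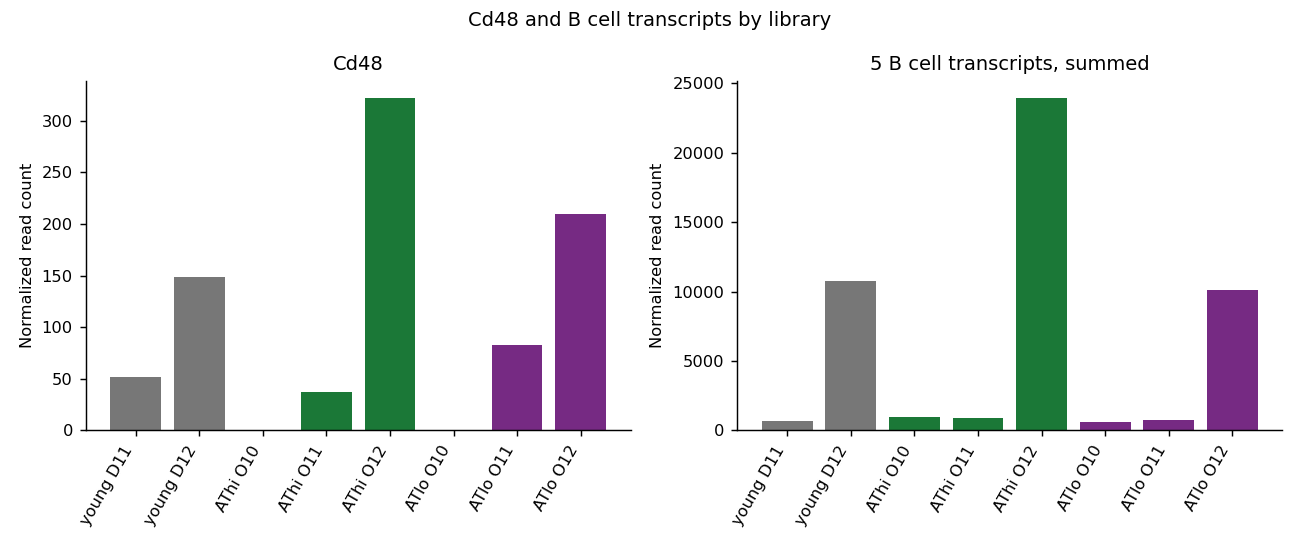
Left, normalized read count of Cd48 in each library; right, the summed normalized count of 5 B cell transcripts (Cd79a, Cd79b, Ighm, Ebf1 and Vpreb3); bars are single libraries coloured by group, on linear axes from 0. The tallest bar of each group is the library tagged 12 in both panels, and Cd48 is at 0 in both libraries of mouse O10.

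Procr, the endothelial protein C receptor, is a transmembrane glycoprotein, and Ly6a is a small protein held in the membrane by a lipid anchor. Procr (chromosome 2, 155751117 to 155755471, plus strand), was at 2321 and 2844 normalized counts in young D11 and D12, at 4646, 4070 and 4834 in AThi O10, O11 and O12, and at 2909, 2120 and 2000 in the ATlo libraries. All AThi libraries were above all other libraries, at 4517 ± 399 against 2343 ± 493 in ATlo and 2582 ± 370 in young (SD, n = 3, 3 and 2), and ATlo overlapped young. By the authors' deposited table Procr rose by 0.95 on the log2 scale in AThi against ATlo (SE 0.18, DESeq2 adjusted p 1.0e-05) and by 0.81 in AThi against young (SE 0.20, adjusted p 0.0025). In ATlo against young the authors' deposited table gave Procr a log2 fold change of -0.14 (SE 0.20, adjusted p 0.86). The difference between the fractions was called in every alternative run, by edgeR with an adjusted p of 0.033 and with the mouse as a replicate block with an adjusted p of 0.040. The proliferation gene Mki67 also separated the fractions, at 14140 to 20394 normalized counts in AThi and 40270 to 47738 in ATlo; its part in the Procr difference was not tested. The rise against young was not called by edgeR (adjusted p 0.10) or without young D11 (DESeq2 adjusted p 0.14).

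Ly6a (chromosome 15, 74994877 to 74998031, minus strand) was at 2614 and 2718 normalized counts in young D11 and D12, at 3384, 5576 and 3534 in AThi O10, O11 and O12, and at 2296, 3818 and 2180 in the ATlo libraries. Mouse O11 was the highest in both fractions, so the fractions overlapped although AThi was the higher one in each mouse, and all AThi libraries were above both young ones. Ly6a belongs to a family of similar genes, and reads shared with a close relative could have been split in the counting, so its level is uncertain to that extent. The log2 fold change of Ly6a was 0.59 (SE 0.25, DESeq2 adjusted p 0.13) in AThi against ATlo and 0.64 (SE 0.28, adjusted p 0.21) in AThi against young in the authors' deposited table. With the mouse as a replicate block, Ly6a was higher in AThi than in ATlo by DESeq2 (log2 fold change 0.60, adjusted p 0.00011; 10.6% of genes called) and was not called by edgeR (adjusted p 0.057; 1.59%). It was also called without ATlo O11 (log2 fold change 0.90, DESeq2 adjusted p 0.0041), a fit that keeps AThi O11, the highest AThi library. Without AThi O11 Ly6a was not called (log2 fold change 0.32, DESeq2 adjusted p 0.55), nor was it without any other library.

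Cd34, a sialomucin whose loss from the surface marks the most quiescent adult mouse HSCs, lies on chromosome 1 (194938819 to 194961279, plus strand). It was at 5818 and 4341 normalized counts in young D11 and D12, at 2616, 3109 and 2266 in AThi O10, O11 and O12, and at 3496, 4582 and 3155 in the ATlo libraries. Every AThi library was below every other library, and the ATlo range overlapped that of young. By the authors' deposited table Cd34 fell by 0.93 on the log2 scale in AThi against young (SE 0.22, DESeq2 adjusted p 0.0010). Its log2 fold change was -0.49 (SE 0.19, adjusted p 0.10) in AThi against ATlo and -0.44 (SE 0.22, adjusted p 0.31) in ATlo against young, again from the authors' deposited table. With the mouse as a replicate block, Cd34 was lower in AThi than in ATlo by DESeq2 (log2 fold change -0.49, adjusted p 0.0034) and was not called by edgeR (adjusted p 0.080). The fall against young was not called by edgeR (adjusted p 0.086) or without young D11 (DESeq2 adjusted p 0.15). An antisense gene, Gm16897, shares 148 bases (2.03%) of the Cd34 exons, and without a stated strand setting its reads cannot be told apart there.

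Cd27, the receptor for CD70 (chromosome 6, 125232622 to 125237010, minus strand), was at 7926 and 8934 normalized counts in young D11 and D12, at 5798, 7397 and 8482 in AThi O10, O11 and O12, and at 6722, 7877 and 7676 in the ATlo libraries. The 3 groups lay close together, although every ATlo library was just below both young ones. For Cd27 the authors' deposited table gave log2 fold changes of -0.22 (SE 0.17), -0.18 (SE 0.17) and -0.04 (SE 0.16) in AThi against young, ATlo against young and AThi against ATlo, with DESeq2 adjusted p of 0.69, 0.73 and 0.94. The 95% interval of the last was -0.35 to 0.27 in the authors' deposited table.

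Within each old mouse, the fractions differed in the same direction for 6 of the 8 mRNAs in all 3 mice, 4 higher and 2 lower in AThi, where 41.9% of all genes tested had a common direction (21.7% higher and 20.2% lower). The log2 difference of Ly6a, from normalized counts + 1, was 0.56, 0.55 and 0.70 in mice O10, O11 and O12, and that of Cd34 was -0.42, -0.56 and -0.48. These within-mouse differences had SDs of 0.08 and 0.07. The range between mice within AThi, a wider measure than an SD, was 0.72 and 0.46. Kit was higher in AThi by 0.26, 0.20 and 0.18, a smaller step than the 0.62 that separated its AThi libraries. The step of Procr was 0.68, 0.94 and 1.27, and that of Slamf1 was 0.43, 0.38 and 0.11. Flt3 was lower by 0.76 in mouse O10 and by only 0.13 and 0.02 in the others. Cd27 and Cd48 went in different directions in different mice.

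**Figure D5:**
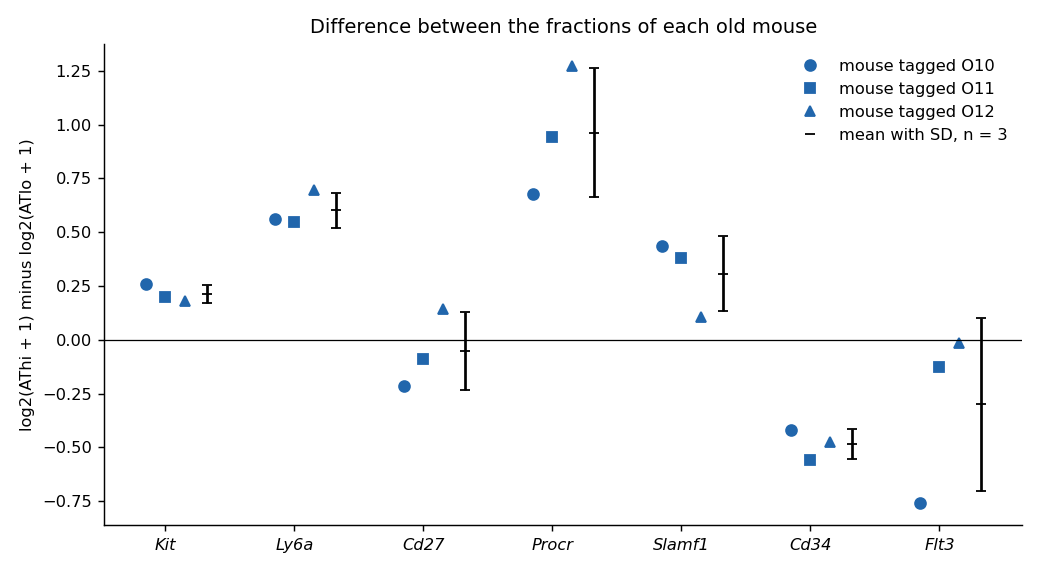
Difference between the AThi and ATlo libraries of each old mouse, as log2(normalized count + 1), for 7 surface markers; each shape is a mouse and the black mark is the mean with its SD (n = 3). The 3 mice lie close together for Kit, Ly6a and Cd34, and the values of Flt3 range from -0.76 to -0.02.

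Ratios of pairs of markers within a library do not depend on how the library was scaled. The log2 ratio of Procr to Cd34 was 0.83, 0.39 and 1.09 in AThi O10, O11 and O12, -0.27, -1.11 and -0.66 in the ATlo libraries and -1.33 and -0.61 in young. In counts, which are not corrected for exon length, Procr thus exceeded Cd34 in the 3 AThi libraries alone. Per kilobase of exon, Procr was above Cd34 in every library. The ratio was 2.73-fold higher in AThi than in ATlo (two-sided exact permutation test, p = 0.1, adjusted p 0.43 over 15 tests). The log2 ratio of Ly6a to Flt3 was 3.40, 3.56 and 3.43 in AThi, 2.08, 2.88 and 2.71 in ATlo and 1.18 and 1.66 in young, with no overlap between any 2 groups. It was 1.87-fold higher in AThi than in ATlo (exact permutation test, p = 0.1), 4.12-fold higher in AThi than in young and 2.21-fold higher in ATlo than in young (p = 0.2 each, exact permutation test; adjusted p 0.43 for all 3). With these group sizes the smallest possible p is 0.1 for 3 against 3 and 0.2 for 3 against 2, so none of the 15 tests could pass. Cd34 to Flt3 was higher in both old fractions than in young without overlap (log2 differences 0.51 and 0.69), Kit to Ly6a overlapped in all comparisons, and Slamf1 to Cd48 ran from 3.49 in young D12 to 11.94 in AThi O10, where Cd48 was at 0.

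The promoters of the 4 genes called against young are shown because 2 of these mRNAs rose and 2 fell in the same libraries. Of the 8 genes, 7 matched a RefSeq promoter (GRCm38.p6), a window of 300 bases from 250 before to 50 after the start. Capitals mark the core GGAA bound by ETS factors, on either strand. A GATA motif, AGATAA, was searched on both strands, and so was a motif of the RUNX factors, TGTGGT. Neither string of letters had a match in these windows, so none overlaps the capitals. Only these exact letters were searched, so other forms of these motifs were not counted.
Procr, chr2:155750967-155751266, plus strand: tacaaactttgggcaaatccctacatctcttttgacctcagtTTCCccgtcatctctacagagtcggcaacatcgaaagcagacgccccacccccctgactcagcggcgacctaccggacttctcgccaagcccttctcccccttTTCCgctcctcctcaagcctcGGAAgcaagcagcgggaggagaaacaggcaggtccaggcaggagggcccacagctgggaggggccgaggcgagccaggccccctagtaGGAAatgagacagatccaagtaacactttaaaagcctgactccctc
Slamf1, chr1:171766882-171767181, plus strand: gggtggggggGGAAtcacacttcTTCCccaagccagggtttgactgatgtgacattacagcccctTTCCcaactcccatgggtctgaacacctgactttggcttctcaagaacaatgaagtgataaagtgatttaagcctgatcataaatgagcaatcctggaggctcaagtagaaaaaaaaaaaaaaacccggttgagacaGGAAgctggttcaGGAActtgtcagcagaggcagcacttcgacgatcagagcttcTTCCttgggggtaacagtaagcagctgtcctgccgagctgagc
Cd34, chr1:194938571-194938870, plus strand: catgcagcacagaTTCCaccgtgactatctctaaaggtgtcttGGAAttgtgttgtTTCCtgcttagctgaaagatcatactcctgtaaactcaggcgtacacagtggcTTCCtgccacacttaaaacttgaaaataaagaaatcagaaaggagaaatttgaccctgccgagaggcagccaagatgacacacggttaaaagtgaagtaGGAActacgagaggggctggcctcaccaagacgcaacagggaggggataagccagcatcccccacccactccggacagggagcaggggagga
Flt3, chr5:147400440-147400739, minus strand: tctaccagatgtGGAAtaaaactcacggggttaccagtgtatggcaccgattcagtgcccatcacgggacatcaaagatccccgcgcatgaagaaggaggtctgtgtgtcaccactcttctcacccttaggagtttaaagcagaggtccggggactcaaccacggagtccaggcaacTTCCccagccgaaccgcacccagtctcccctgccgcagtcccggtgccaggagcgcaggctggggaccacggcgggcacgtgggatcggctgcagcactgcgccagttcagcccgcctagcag
GGAA occurred 4 times in the Procr window, 6 in Slamf1, 5 in Cd34 and 2 in Flt3, beside a median of 3 over 32851 windows of the same length, of which 96.0% held at least 1. The GATA letters were in 11.2% of all windows and the RUNX letters in 16.8%. The counts of GGAA in the risen genes (4 and 6) and the fallen ones (5 and 2) overlapped, and a match of letters is not a bound site.

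Genes with the pattern most like that of a marker were found by the root mean square distance between log2(normalized count + 1) values, each centred on its mean, over the same 8 libraries and among 11025 genes. The points share mice and libraries, so the distances are a description. For Procr the nearest were Dnal1, Ptpn14 and Exoc6b (distances 0.13, 0.13 and 0.14, beside a spread of 0.47 for Procr itself). For Slamf1 they were Slco4a1, Dock9 and Il27ra (0.12, 0.14 and 0.15, spread 0.42). Cd34 had Ppwd1, the amino acid transporter Slc38a1 and Zfp316 (0.17 each, spread 0.42), and Flt3 had Bbs5, the collagen gene Col4a1 and Vegfc (0.26, 0.26 and 0.30, spread 0.63). Nearest to Ly6a were Gbp2, Sbno2 and Gbp5 (0.16, 0.18 and 0.18, spread 0.42), the Gbp genes encoding interferon-induced guanylate-binding proteins, which shared its peak in mouse O11. Nearest to Kit were Plbd2, Skiv2l and Adgrg1 (0.08, 0.09 and 0.10, spread 0.27), with the dip in mouse O12, and nearest to Cd27 were Fem1b, Sirpa and Sec24c (0.05, 0.06 and 0.06, spread 0.18). Cd48 had no close neighbour: Ifi206, Ccl5 and Ms4a4b lay at 0.87, 1.16 and 1.57, beside a spread of 3.08. Among the markers themselves, the closest pairs were Kit with Ly6a (0.30) and Cd34 with Flt3 (0.32).

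Among 30 other surface markers of HSCs, the authors' deposited table called 9 higher and 2 lower in AThi than in young, where 3.13% of all genes were higher and 1.91% lower. It called 9 higher and 3 lower in ATlo than in young (2.37% and 1.98% of all genes), and 5 higher and 0 lower in AThi than in ATlo (3.47% and 4.43%). Their median log2 fold changes were 0.05, 0.03 and 0.22, beside 0.00, 0.01 and 0.02 over all genes tested. The edgeR test called 7, 4 and 3 of them, all higher. In AThi against young the adhesion proteins Alcam, Jam2 and Itgb3 and the receptor Neo1 rose by 1.92 (SE 0.18), 2.17 (SE 0.21), 1.78 (SE 0.20) and 2.28 (SE 0.26), as log2 fold changes of the authors' deposited table. Jam2, Cd38, Alcam and Itgb3 also rose between the fractions, and the authors' deposited table gave them 1.17 (SE 0.18), 0.98 (SE 0.18), 0.85 (SE 0.16) and 0.70 (SE 0.18). Itga2b, the CD41 integrin of megakaryocytes, rose against young in both fractions, by 1.15 (SE 0.27) in AThi and 1.82 (SE 0.26) in ATlo in the authors' deposited table. Gprc5c rose by 4.12 and 3.54 (SE 0.56 each) and Itga6 by 1.15 and 0.93 (SE 0.16 each) in AThi and ATlo in the authors' deposited table. Against young, ATlo also had higher Alcam (1.06, SE 0.18) and Jam2 (0.998, SE 0.21) in the authors' deposited table. The 2 called lower in AThi were Tek and Emcn, with log2 fold changes of -1.20 and -1.22 in the authors' deposited table. The 3 called lower in ATlo were Tek (-1.30), Emcn (-1.69) and Cd244a (-2.93) in the authors' deposited table, all 3 named after their values were seen.

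Of 29 ligands and signalling partners of the 8 proteins, 25 were tested in each comparison. The authors' deposited table called 2 higher and 1 lower in AThi than in ATlo (3.47% and 4.43% of all genes), 4 higher and 0 lower in AThi than in young (3.13% and 1.91%), and 3 higher and 2 lower in ATlo than in young (2.37% and 1.98%). Between the fractions Pik3r1, a regulatory subunit of the PI3 kinase that acts downstream of Kit, rose by 0.61 (SE 0.13), Selp, the adhesion receptor P-selectin, rose by 0.54 (SE 0.15) and Siva1, a partner of the Cd27 tail, fell by 0.77 (SE 0.20) in the authors' deposited table. Thbd, which acts with Procr in protein C activation, rose by 1.46 (SE 0.36) in AThi and 1.82 (SE 0.36) in ATlo against young in the authors' deposited table. Podxl, a relative of Cd34, rose by 1.05 and 1.06 (SE 0.33 each) in the same contrasts of the authors' deposited table. The thrombin receptor F2r rose by 0.43 (SE 0.13) in AThi against young, and Socs2, a feedback inhibitor of cytokine signalling, fell by 4.49 (SE 1.23) in ATlo against young in the authors' deposited table. Socs2 was also low in AThi against young, though not called there (log2 fold change -3.42, SE 1.23, DESeq2 adjusted p 0.086). Its fall in ATlo was not called by edgeR (adjusted p 0.094). Selp rose by 3.43 and 2.89 (SE 0.18 each) against young in the authors' deposited table. The edgeR test kept 1 call in each comparison, Pik3r1 between the fractions and Selp against young. The other gene called lower in ATlo against young, beside Socs2, was Cd244a, which is also counted among the other surface markers and the SLAM family.

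Of 7 other SLAM family genes, 4 were tested, and 1 was called in AThi against ATlo (7.9% of all genes), 0 in AThi against young (5.04%) and 1 in ATlo against young (4.34%). Cd84 rose by 0.41 (SE 0.14, DESeq2 adjusted p 0.043) in AThi against ATlo in the authors' deposited table, and Cd244a, the receptor for Cd48, chosen after its values were seen, fell by 2.93 (SE 0.90, adjusted p 0.034) in ATlo against young from 142 and 120 normalized counts to 25.1, 6.4 and 20.2. Ly6e, the called gene among 4 to 5 tested Ly6 relatives, rose by 0.58 and 0.53 (SE 0.17 each) in AThi and ATlo against young in the authors' deposited table. Of 3 other class III receptor kinases 2 were tested, Csf1r and Pdgfrb, and the authors' deposited table gave neither a DESeq2 adjusted p under 0.18. Of the TNF receptor relatives of Cd27, only Tnfrsf1b of 11 to 12 tested was called, 0.59 higher (SE 0.16, adjusted p 0.0075) in AThi than in ATlo in the authors' deposited table. By edgeR the adjusted p was 0.17 for Cd84 and 0.099 for Tnfrsf1b, for Ly6e it was 0.15 and 0.23, and for Cd244a in ATlo against young it was 0.21.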

How the data were processed

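HSC RNA was sequenced from 2 young and 3 old mice, the old HSCs as paired AThi and ATlo fractions. The submitters' processing notes name FastQC, MultiQC, STAR, featureCounts, DESeq2 and the mouse build GRCm38. Not given in the sources used here: versions, annotation, strand setting and step order. Per the file headers, the authors deposited log2 fold changes with standard errors, p-values and adjusted p-values for 3 contrasts over 19909 genes, with a normalized signal (a read count over 1 factor per library) and its mean. Each column was divided by the value of 1 read, and 100% of the values came out whole within 0.01 of a read. The main test is the authors' deposited DESeq2 Wald test at an adjusted p below 0.05. A refit of the recovered counts with DESeq2 1.42.0 made the same 1414, 961 and 811 calls. Alternatives used edgeR 4.0.16 (which called 280, 240 and 130 genes) and limma 3.58.1 in R 4.3.3. The DESeq2 and edgeR tests were also run on simulated data, and limma was not. Values, ratios and plots used Python 3.11.15 with scipy 1.17.1. Per the labels, the old fractions were paired. Fractions with the same header tag had correlated deviations from their group means (0.21, 0.16 and 0.37 over 13611 genes), and the tag was taken as the mouse. The correlation cannot tell a shared mouse from a shared sort day or batch. The header tags differ from the labels' replicate numbers, so columns were matched to groups only. Exon lengths and coordinates came from GENCODE M21 (GRCm38). The text names the 8 members, up to 4 called genes with the lowest adjusted p per list and contrast (base mean of 100 or more), and the 3 genes nearest in pattern to each member. Tek, Emcn, Cd244a, Csf1r, Pdgfrb, the repeats of named genes in other contrasts and the genes used to describe the libraries were chosen after their values were seen. The members and lists were chosen with earlier results of these data known.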

Additional observations from a re-analysis of the deposited data

How the results depend on the processing

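Of 376 comparisons of a marker's result with an alternative, 333 kept their direction and their side of the threshold, 18 lost a call, 5 gained one and 20 changed sign. Most of the 376 were of results that had not been called and had no call to lose. The 18 lost calls were all against young, where the authors' deposited table called 4 markers in AThi and 2 in ATlo. TMM factors, a minimum mean of 10 and no independent filtering changed no call. In AThi against ATlo, the replicate block, with the mouse as the pair, gave 2 higher and 1 lower by DESeq2 and 17 called list genes in place of 10 (by edgeR 6). Without 1 library, 1 to 2 markers were called higher. In AThi against young, edgeR and limma each called 1 higher and 0 lower in place of 2 and 2; without 1 library the counts ran from 1 to 2 higher and 0 to 2 lower. In ATlo against young, edgeR called 0 and 0 and limma 1 and 0; without 1 library 1 was higher and 0 to 1 lower. Without the 2 libraries tagged O12, 0 were lower there, and without the 3 tagged 12, 0 were higher and 0 lower; both alternatives, and edgeR with the block, were chosen after seeing the data. List genes called were 4 in AThi against ATlo by edgeR and by limma, 8 by each in AThi against young, and 5 and 9 in ATlo against young (9 to 16 without 1 library). The cause was not tested.

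Sign changes were of values that had not passed the test. Cd48 in AThi against ATlo was -0.16 and -0.24 with the replicate block by DESeq2 and edgeR, -0.17 by limma, -1.13 without O12, -1.14 without the 3 libraries tagged 12 and -2.38 to 1.54 without 1 library. In AThi against young it was -1.94 by limma, -2.41 without O12, -1.46 without the 3 tagged 12 and -2.42 to 1.21 without 1 library, and in ATlo against young -1.28 to 0.91 without 1 library. Without 1 library, Cd27 in AThi against ATlo ran from -0.17 to 0.10, Ly6a in ATlo against young from -0.25 to 0.20 and Procr there from -0.32 to 0.017 (0.12 without the 3 tagged 12). The log2 difference of Slamf1 to Cd48 in AThi against ATlo ran from -1.83 to 2.80 without 1 library, that of Procr to Cd34 in ATlo against young from -0.068 to 0.65 and that of Kit to Ly6a there from -0.071 to 0.23. A pseudocount of 0 could not be run for Slamf1 to Cd48, since Cd48 was at 0. An arm left with 1 young library was assumed to vary like the other groups. Cd48 had the fewest reads of the markers, 0 to 308 a library. It was at 0 in ATlo O10, with a depth of 57714738 reads, and at 308 in AThi O12, with 45830216. The part of depth in its spread was not tested.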
